A study of Mus musculus with 24 samples.

Results

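Of 184158 ATAC-seq consensus peaks in mouse bone marrow-derived macrophages (BMDMs), 1201 were at least 2-fold higher in AhR-KO than in wildtype (WT) cells both without stimulation and with LPS. The level of a peak was measured as CPM, the library's count in that peak divided by its total over all peaks and scaled to the same total in every library, and was averaged over the 6 libraries of a group. A peak was chosen when the AhR-KO mean was at least 2 times the WT mean in both treatments and at least 1 CPM in both. Peaks on chromosomes 1 to 19 were considered, leaving out chromosome 12 from 15.5 to 55.5 Mb, the stretch that surrounds the Ahr gene, which left 176815 peaks. The selection thus made up 0.679% of the peaks it was drawn from. Because the genotype difference chose these peaks, it is described below without a test, and tests are given for the response to LPS. The count of chosen peaks went from 1201 to 1287 or 1475 with the other library scalings tried, TMM and RLE.

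ATAC-seq measures accessible chromatin: a transposase cuts and tags DNA that nucleosomes leave exposed, so a region with many fragments is an open region. The 24 libraries formed 4 groups of 6, with each genotype left unstimulated or given LPS. The study's methods name WT mice on the C57BL/6J background and the B6.129-Ahr tm1Bra/J line, a germline knockout, as the sources of marrow, from male and female mice. Marrow of both genotypes was grown in medium with GM-CSF at 10 ng/ml, TGF-β at 2 ng/ml and 10% serum, LPS was given at 97 EU/ml on day 6 for 24 h, and the calcium ionophore A23187 followed at 5 µM for 10 min. Every library carries this stimulation text in its label, so it is not stated there whether unstimulated cultures received the ionophore. Each group came from 6 animals in 1 experiment, per a legend in the paper. The labels number the libraries within a group without tying them to animals, so whether a mouse gave both an unstimulated and an LPS library is not stated.

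AhR, the aryl hydrocarbon receptor, is a transcription factor that small molecules activate and that binds DNA with its partner ARNT at sites holding the letters GCGTG. LPS, a component of bacterial cell walls, is sensed by Toll-like receptor 4 and opens enhancers in macrophages through factors that include NF-kB and AP-1. C/EBP and PU.1 are factors that keep macrophage enhancers open, and AP-1 and C/EBP sites are common in enhancers of myeloid cells.

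Total counts per library ran from 8.54 M to 34.6 M (M, mega), and the lowest was WT unstimulated replicate 5. Transcription start sites (TSSs) of 11 of 12 macrophage identity genes lay in a consensus peak, against 1 of 9 lymphocyte genes and 2 of 9 mast cell and basophil genes. The peaks over TSSs of 13 of 14 alveolar macrophage genes summed to 237 to 274 CPM in AhR-KO against 187 to 214 in WT without stimulation, and to 133 to 147 against 136 to 154 with LPS. Those of the mast cell and basophil genes summed to 11.1 to 14.4 CPM in AhR-KO against 17.7 to 23.4 in WT without stimulation, and to 12.6 to 16.6 against 21.4 to 29.4 with LPS. The macrophage identity peaks summed to 369 to 463 CPM in AhR-KO against 334 to 365 in WT without stimulation, and overlapped with LPS (264 to 349 against 285 to 320). Those of 12 of 15 dendritic cell genes overlapped in both treatments, at 175 to 207 CPM against 161 to 182 without stimulation and 164 to 183 against 164 to 257 with LPS. So did those of 6 of 10 neutrophil genes, at 38.5 to 42.8 against 38.5 to 53.7 and 47.3 to 55.8 against 40.4 to 58.9. Those of 2 of 5 erythroid genes summed to 20 to 23.5 CPM against 24 to 28.5 without stimulation and to 18.2 to 21.1 against 22.5 to 28.2 with LPS, and those of 2 of 6 stromal genes to 15.5 to 19 against 14.1 to 20.4 and to 11.3 to 13 against 13.4 to 19.7. In a bulk assay, more cells of a type and more open chromatin per cell cannot be told apart, and the part of such shifts in the peaks below was not tested. The peak over the Ahr TSS (chr12:35534069-35535364) ran from 11.6 to 14.9 CPM in AhR-KO and from 20.4 to 24.7 in WT without stimulation, and no consensus peak covered exon 2, so the counts did not check the deletion itself.

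Sequences of 9 of the peaks are shown so that the letters of the motifs can be seen in place. The first 5 are among the 6 peaks with the largest smaller genotype ratio and the next 2 are the peaks at promoters with the highest AhR-KO level. The last 2, near Wdr11 and Pdgfb, were picked after the data were seen, as peaks that hold both an AP-1 and a C/EBP motif and whose level rose with LPS. Each line gives the central 300 bases on the plus strand of mm10 (assembly GRCm38), and each peak is named for the protein-coding gene with the nearest TSS. Capitals mark AP-1 (TGANTCA), C/EBP (TTGCNNAA) or core AhR (GCGTG) motifs on either strand.
Ank2, chr3:127035376-127035675: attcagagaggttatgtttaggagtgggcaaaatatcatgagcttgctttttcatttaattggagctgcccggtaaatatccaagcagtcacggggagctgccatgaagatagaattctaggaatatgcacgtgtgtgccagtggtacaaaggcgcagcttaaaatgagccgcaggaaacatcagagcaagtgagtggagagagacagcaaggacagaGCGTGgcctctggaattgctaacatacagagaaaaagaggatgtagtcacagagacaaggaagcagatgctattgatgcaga
Asic2, chr11:81951705-81952004: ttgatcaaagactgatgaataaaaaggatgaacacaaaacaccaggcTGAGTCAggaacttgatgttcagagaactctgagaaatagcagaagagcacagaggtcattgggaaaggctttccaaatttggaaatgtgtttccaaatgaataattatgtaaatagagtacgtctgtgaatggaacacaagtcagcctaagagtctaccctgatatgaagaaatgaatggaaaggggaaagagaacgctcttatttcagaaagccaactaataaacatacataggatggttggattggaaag
Astn2, chr4:66494422-66494721: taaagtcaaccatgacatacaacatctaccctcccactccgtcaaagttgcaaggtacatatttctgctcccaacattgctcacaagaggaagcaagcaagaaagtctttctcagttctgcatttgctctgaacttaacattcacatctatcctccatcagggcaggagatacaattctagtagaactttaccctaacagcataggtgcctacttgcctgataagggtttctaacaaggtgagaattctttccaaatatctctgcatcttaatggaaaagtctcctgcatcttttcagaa
Slc7a11, chr3:50233900-50234199: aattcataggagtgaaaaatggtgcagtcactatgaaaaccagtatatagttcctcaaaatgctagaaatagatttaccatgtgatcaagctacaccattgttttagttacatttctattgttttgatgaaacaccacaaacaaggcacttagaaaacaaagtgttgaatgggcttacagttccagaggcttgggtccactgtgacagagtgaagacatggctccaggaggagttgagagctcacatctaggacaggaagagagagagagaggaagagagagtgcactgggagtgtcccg
Pappa, chr4:65242588-65242887: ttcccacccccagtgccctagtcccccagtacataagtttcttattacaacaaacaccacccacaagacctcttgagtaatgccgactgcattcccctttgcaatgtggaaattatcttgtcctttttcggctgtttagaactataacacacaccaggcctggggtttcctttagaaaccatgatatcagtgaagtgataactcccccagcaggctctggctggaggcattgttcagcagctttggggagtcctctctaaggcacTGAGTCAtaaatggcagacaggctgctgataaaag
Klrb1a, chr6:128623614-128623913: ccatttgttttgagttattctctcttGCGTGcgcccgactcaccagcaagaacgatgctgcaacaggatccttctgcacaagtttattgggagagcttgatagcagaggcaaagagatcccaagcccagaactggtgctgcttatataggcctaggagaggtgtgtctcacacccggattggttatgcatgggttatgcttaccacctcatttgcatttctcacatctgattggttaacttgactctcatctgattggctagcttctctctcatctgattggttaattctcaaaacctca
Pgap2, chr7:102230594-102230893: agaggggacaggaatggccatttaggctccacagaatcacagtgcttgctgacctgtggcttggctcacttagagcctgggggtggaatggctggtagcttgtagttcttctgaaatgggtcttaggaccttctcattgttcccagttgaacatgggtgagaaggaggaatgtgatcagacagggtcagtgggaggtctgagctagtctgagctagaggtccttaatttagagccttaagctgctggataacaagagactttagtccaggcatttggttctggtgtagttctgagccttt
Wdr11, chr7:129526081-129526380: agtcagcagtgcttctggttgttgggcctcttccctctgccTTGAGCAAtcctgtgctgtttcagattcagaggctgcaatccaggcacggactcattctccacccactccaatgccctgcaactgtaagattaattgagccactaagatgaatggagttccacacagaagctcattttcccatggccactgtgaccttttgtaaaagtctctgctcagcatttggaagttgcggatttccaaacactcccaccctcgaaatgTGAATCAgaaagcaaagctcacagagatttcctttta
Pdgfb, chr15:80045183-80045482: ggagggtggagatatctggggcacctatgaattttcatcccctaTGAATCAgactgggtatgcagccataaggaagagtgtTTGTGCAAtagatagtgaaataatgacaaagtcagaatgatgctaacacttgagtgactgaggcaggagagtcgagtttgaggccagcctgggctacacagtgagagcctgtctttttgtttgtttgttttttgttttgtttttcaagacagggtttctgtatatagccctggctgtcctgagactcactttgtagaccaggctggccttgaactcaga

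The summed level of the 1201 peaks was 1652 to 2494 CPM in the WT unstimulated libraries (median 2100) and 4942 to 5907 in the AhR-KO unstimulated libraries (median 5316). With LPS, it was 2511 to 3575 CPM in WT (median 2898) and 6524 to 7586 in AhR-KO (median 7429). The 4 groups did not overlap, and both groups of WT libraries lay below every AhR-KO library. All 6 AhR-KO libraries lay above all 6 WT libraries at 1103 of the 1201 peaks without stimulation, where 9.63% of the 174193 tested peaks did so, and at 1106 with LPS, where 9.61% did. At 1018 peaks they did in both treatments, where 5408 of all 176815 peaks did.

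**Figure D1:**
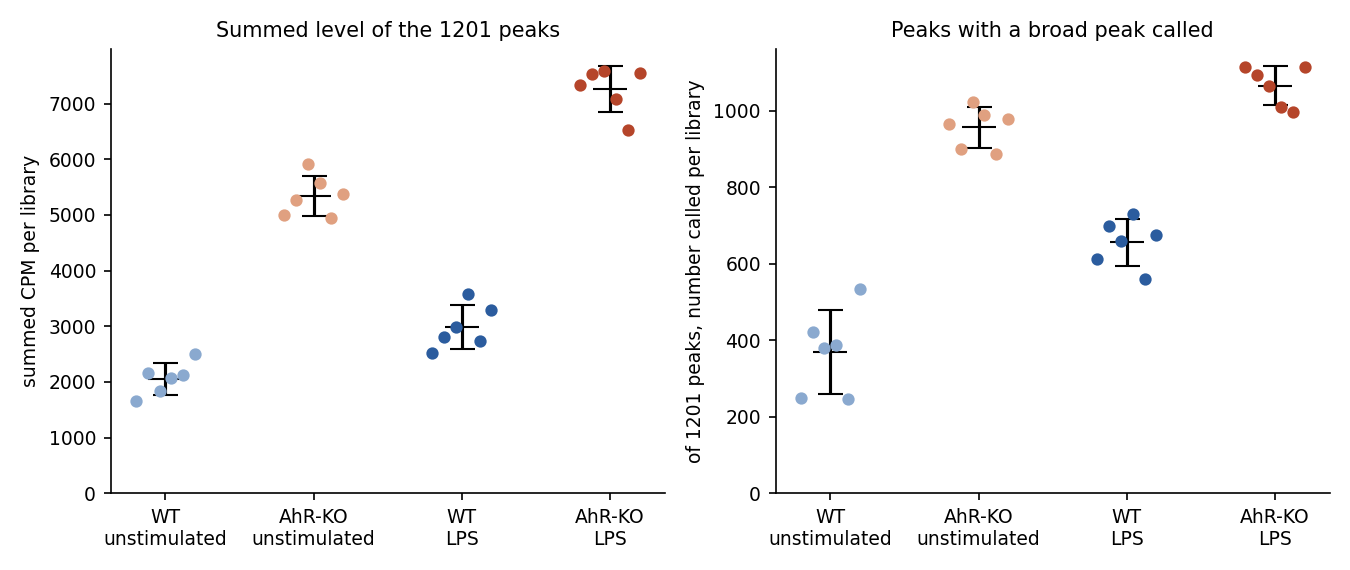
Summed level of the 1201 peaks in CPM (left axis) and number of the 1201 peaks that overlap a broad peak called in that library (right panel), for each library of the 4 groups. Points are libraries and black marks are the mean and SD of 6, and the AhR-KO libraries sit above the WT libraries in both panels, at 4942 to 7586 against 1652 to 3575 CPM.

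Broad peaks had also been called in each library on its own. A median of 382.5 of the 1201 peaks overlapped such a call in a WT unstimulated library (range 246 to 534) and a median of 970.5 in an AhR-KO unstimulated one (886 to 1023). With LPS, the number was 560 to 729 in WT and 997 to 1115 in AhR-KO. Without stimulation, 587 peaks (48.9%) had no call in any WT library and 86 (7.16%) had none in any AhR-KO library, where 32.8% and 33.3% of all 176815 peaks and 9.39% and 6.5% of the 98226 peaks with an AhR-KO mean of at least 1 CPM in both treatments had none. With LPS, these numbers were 330 (27.5%) and 26 (2.16%), beside 24.4% and 26.3% of all peaks and 5.16% and 4.49% of those with the same floor. A total of 17 peaks were called in all 12 AhR-KO libraries and in none of the 12 WT libraries, and 140 in all 12 WT libraries, counts not compared with all peaks. In all 6 WT libraries of a treatment, 14.5% of the 1201 peaks were called without stimulation and 38.4% with LPS. These shares were 34.4% and 44.9% of all peaks, and 59.9% and 73.6% of those with the same floor. By level, 548 of the 1201 peaks had a WT mean of at least 1 CPM in both treatments, 409 in 1 treatment and 244 in neither.

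The AhR-KO to WT ratio had a median of 2.55 without stimulation (2 to 9.63) and of 2.39 with LPS (2 to 5.21). The ratio was the larger one without stimulation at 759 peaks and with LPS at 442. Few peaks were far above the threshold: 80 were at least 3-fold higher in both treatments and 4 were at least 4-fold higher in both. The opposite selection took peaks with a WT mean of at least 1 CPM and at least 2 times the AhR-KO mean in both treatments. It held 3472 peaks, 1.96% of the 176815, of which 1324 passed 3-fold and 675 passed 4-fold in both. In the edgeR fit over all peaks, a differentially accessible region (DAR) was called at 0.05 or below for the adjusted p-value together with a change of 1.5-fold or more. By that call 1199 of the 1201 peaks were higher in AhR-KO in each treatment, beside 9.95% of all tested peaks without stimulation and 13.4% with LPS, which repeats the choice of the peaks.

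**Figure D2:**
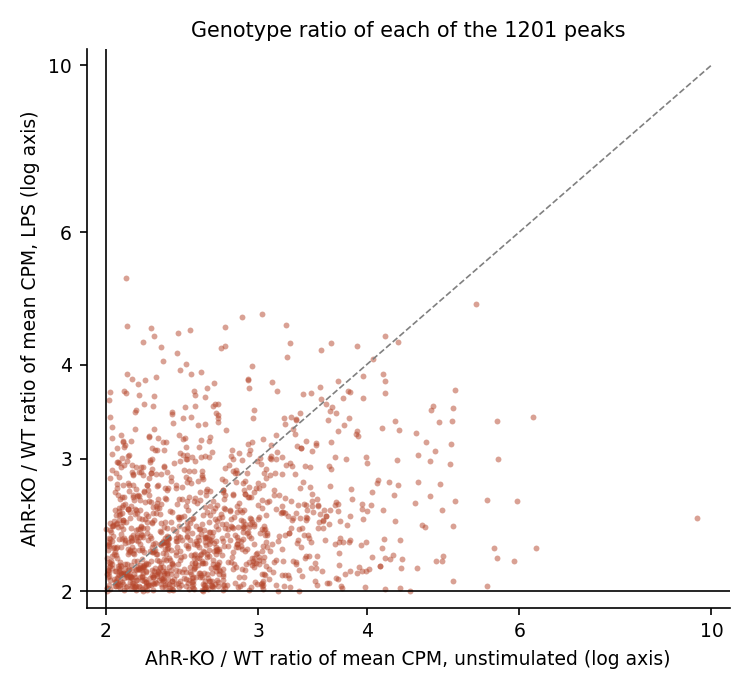
AhR-KO to WT ratio of the group mean CPM without stimulation (x axis) and with LPS (y axis), both on log axes, for each of the 1201 peaks, with black lines at the threshold of 2 and a dashed line of equal ratios. Most points lie close to the threshold, and the medians are 2.55 without stimulation and 2.39 with LPS.

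The threshold cut through a continuous range. The 5 peaks just inside it had a smaller ratio of 2.0001 (near Enpp6), 2.0003 (Tns3), 2.0007 (Tmem51), 2.0019 (Isl2) and 2.002 (Rasal2). The 5 just outside had 1.9998 (Tmem232), 1.9993 (Fry), 1.9992 (Trp63), 1.9983 (Rapgef2) and 1.9981 (Dmrta2). The Fry peak reached a ratio of 3.5021 without stimulation and missed the threshold with LPS, and the Isl2 peak reached 3.1618 without stimulation.

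Ranked by the smaller of their 2 ratios, 11 of the 12 leading peaks were intronic or intergenic. The leading peak lay in an intron of Ank2, which encodes ankyrin-B, an adaptor between membrane proteins and the spectrin skeleton (chr3:127034979-127036071, 37.1 kb from the TSS). It ran from 2.58 to 4.55 CPM in WT libraries and from 13 to 20.8 in AhR-KO without stimulation (medians 3.42 and 14), and from 1.71 to 3.92 in WT libraries and from 9.41 to 16.9 in AhR-KO with LPS (medians 3.14 and 12.7). The genotypes did not overlap, and the ratios of the means were 4.35 and 4.29. Its level was not called changed with LPS in either genotype (log2 -0.25, SE 0.184, adjusted p = 0.236 in WT and -0.23, SE 0.142, adjusted p = 0.149 in AhR-KO, edgeR).

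The peak in an intron of Agbl4, which encodes a carboxypeptidase that trims glutamates from tubulin, ran from 0.703 to 1.85 CPM in WT libraries and from 3.11 to 4.91 in AhR-KO without stimulation (medians 0.809 and 4.26; chr4:110527885-110528973). With LPS it ran from 0.996 to 2.94 in WT libraries and from 5.51 to 9.2 in AhR-KO (medians 1.78 and 6.6). It rose with LPS in both genotypes, by 0.80 on the log2 scale in WT (SE 0.247, adjusted p = 0.00599) and by 0.75 in AhR-KO (SE 0.178, adjusted p = 0.000433), both by edgeR. The peak nearest to Astn2, which encodes a neuronal membrane protein, did the same from a lower start (chr4:66494180-66494963). Its range was 0.469 to 1.45 CPM in WT and 2.25 to 4.01 in AhR-KO without stimulation and 1.32 to 2.84 and 5.39 to 9.27 with LPS (medians 0.716, 3.1, 1.81 and 7.69), and its log2 change with LPS was 1.22 in WT (SE 0.254, adjusted p = 0.000105) and 1.27 in AhR-KO (SE 0.181, adjusted p = 3.16e-07, edgeR).

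The peak nearest to Wdr11, a gene for a WD-repeat protein, showed the clearest LPS rise among these (chr7:129525997-129526463, 65.6 kb from the TSS). It ran from 0.258 to 1.05 CPM in WT libraries and from 2.03 to 3.54 in AhR-KO without stimulation, and from 2.2 to 3.18 and from 7.42 to 11.6 with LPS (medians 0.639, 2.47, 2.48 and 9.47). The unstimulated AhR-KO libraries therefore overlapped the LPS-treated WT libraries, while the AhR-KO LPS libraries lay above all the others. LPS raised it by 2.00 on the log2 scale in WT (SE 0.218, adjusted p = 7.14e-10) and by 1.83 in AhR-KO (SE 0.153, adjusted p = 6.55e-13, edgeR).

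The peak in an intron of Slc7a11, which encodes the cystine/glutamate exchanger xCT, had ratios of 4.07 and 4.06 (chr3:50233698-50234401). It ran from 0.451 to 0.937 CPM in WT libraries and from 2.16 to 4.72 in AhR-KO without stimulation and from 0.202 to 0.913 and from 1.65 to 3.67 with LPS (medians 0.857, 3.1, 0.607 and 2.38). No library of WT reached an AhR-KO library, and no broad peak was called there in any WT library while it was called in all 12 AhR-KO libraries. Slc7a11 had the nearest TSS for 4 of the chosen peaks among 80 peaks assigned to it, and no peak assigned to it fell in the opposite selection.

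The peak in an intron of Asic2, an acid-sensing ion channel gene, had ratios of 5.35 and 4.81, above those of the other 11 leading peaks, at a low level (chr11:81951720-81951989). Its libraries ran from 0.177 to 0.649 CPM in WT libraries and from 1.24 to 2.45 in AhR-KO without stimulation, and from 0.167 to 0.297 and from 0.581 to 1.58 with LPS (medians 0.349, 1.95, 0.221 and 1.12). It ranked below Ank2 and Agbl4 because 0.1 CPM was added to both means for the ranking. LPS lowered it in AhR-KO (log2 -0.73, SE 0.205, adjusted p = 0.00216), and the WT change was -0.61 (SE 0.346, adjusted p = 0.12, edgeR). The peak in an intron of Pappa, which encodes a metalloprotease that cleaves IGF-binding proteins, ran from 0.193 to 0.703 CPM in WT libraries and from 1.22 to 2.61 in AhR-KO without stimulation and from 0.319 to 0.549 and from 1.52 to 2.61 with LPS (medians 0.385, 1.63, 0.518 and 1.88; chr4:65242423-65243051). LPS was not called to change it in either genotype (log2 0.13 in WT, adjusted p = 0.723, and 0.15 in AhR-KO, adjusted p = 0.478, edgeR), and its WT change was below 0 without replicate 1 or 3.

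The remaining leading peaks were nearest to Xylt1, a proteoglycan xylosyltransferase gene (ratios 3.82 and 3.68), Stard13, a gene for a GTPase-activating protein (3.7 and 3.81), the olfactory receptor gene Olfr961 (3.65 and 3.52), and the predicted genes AL731706.2 (3.81 and 3.69) and Gm11077 (4.2 and 3.81). At each of these 5 peaks all AhR-KO libraries lay above all WT libraries in both treatments. The Gm11077 peak fell with LPS, with log2 changes of -1.09 in WT (SE 0.21, adjusted p = 2.48e-05) and -1.20 in AhR-KO (SE 0.146, adjusted p = 4.54e-09, edgeR), and at the Xylt1, Stard13 and AL731706.2 peaks no LPS change was called in either genotype.

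**Figure D3:**
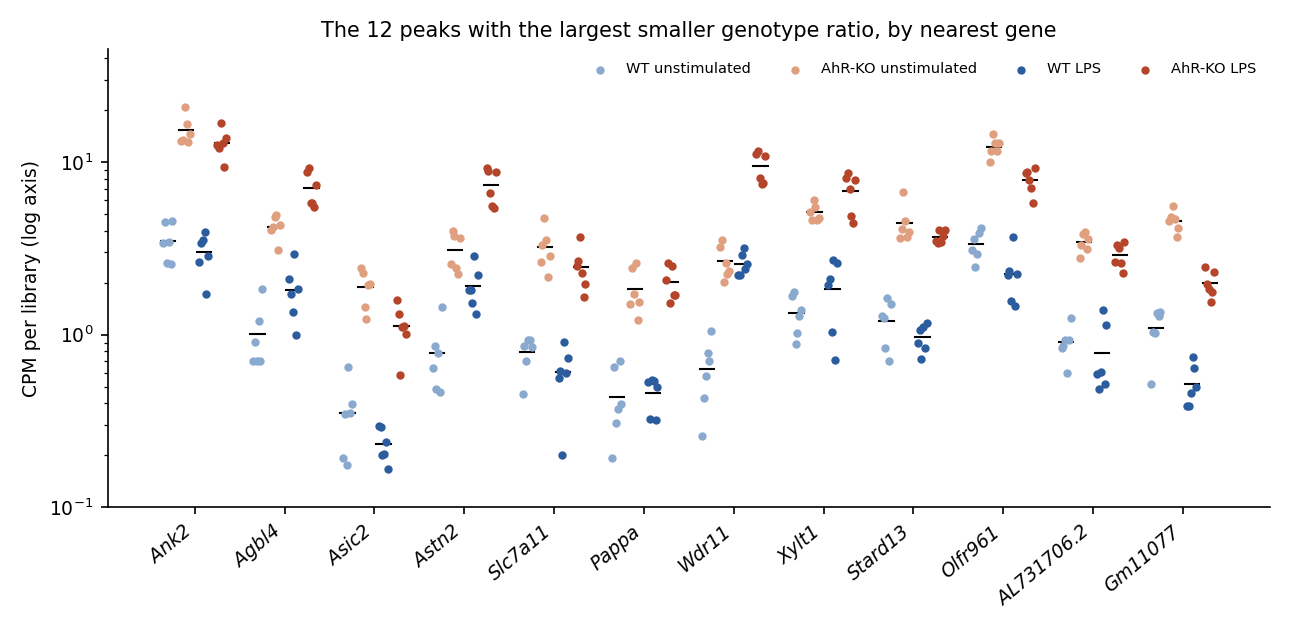
CPM on a log axis in each library for the 12 peaks with the largest smaller-of-2 genotype ratio, named by nearest gene. Points are libraries coloured by group and bars are group means, and AhR-KO points lie above the WT points of the same treatment at all 12 peaks, as at Ank2 with 13 to 20.8 against 2.58 to 4.55 CPM without stimulation.

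How the chosen peaks responded to LPS was asked within each genotype, a contrast that the choice did not use, although the choice did set a floor of 1 CPM on both AhR-KO means and used the same libraries. In WT, 520 of the 1201 peaks (43.3%) were called higher with LPS and 188 (15.7%) lower, where 25.4% of all 174193 tested peaks were called higher and 21.6% lower. In AhR-KO, 495 (41.2%) were called higher and 221 (18.4%) lower, where 27.3% and 21.5% of all tested peaks were. The median log2 change of the 1201 peaks was 0.42 in WT and 0.33 in AhR-KO, and that of all tested peaks was -0.01 and 0.05. Among the 98226 peaks with an AhR-KO mean of at least 1 CPM in both treatments, which share the floor, 18% were called higher in WT and 19.7% in AhR-KO. The 3472 peaks lower in AhR-KO had 17.3% called higher and 38.2% called lower with LPS in WT cells, where AhR-KO had 13% and 23.9%.

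The LPS calls of the genotypes were then compared. Of the peaks called higher, 448 were called in both, which is 86.2% of the WT calls and 90.5% of the AhR-KO calls, where the same shares over all tested peaks were 82.4% and 76.6%. Of those called lower, 170 were called in both, 90.4% of the WT calls and 76.9% of the AhR-KO calls, against 72.3% and 72.7% over all tested peaks. No peak was called in opposite directions, which was rare among the tested peaks of the same chromosomes too. Of those, 0.0742% were called higher in WT and lower in AhR-KO, and 0.115% the other way round. The choice asked for a ratio above the same threshold in both treatments, which ties the LPS change in one genotype to that in the other. There were 72 peaks (6%) called higher in WT and not called in AhR-KO and 47 (3.91%) the other way round. Among the tested peaks of the same chromosomes, these shares were 4.41% and 6.29%. The counts are not a test of a difference between genotypes. All 6 LPS libraries lay above all 6 unstimulated ones at 395 peaks in WT and 444 in AhR-KO, where 20.8% and 24.7% of all tested peaks did, and below them at 91 and 216, where 17.8% and 21% did.

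**Figure D4:**
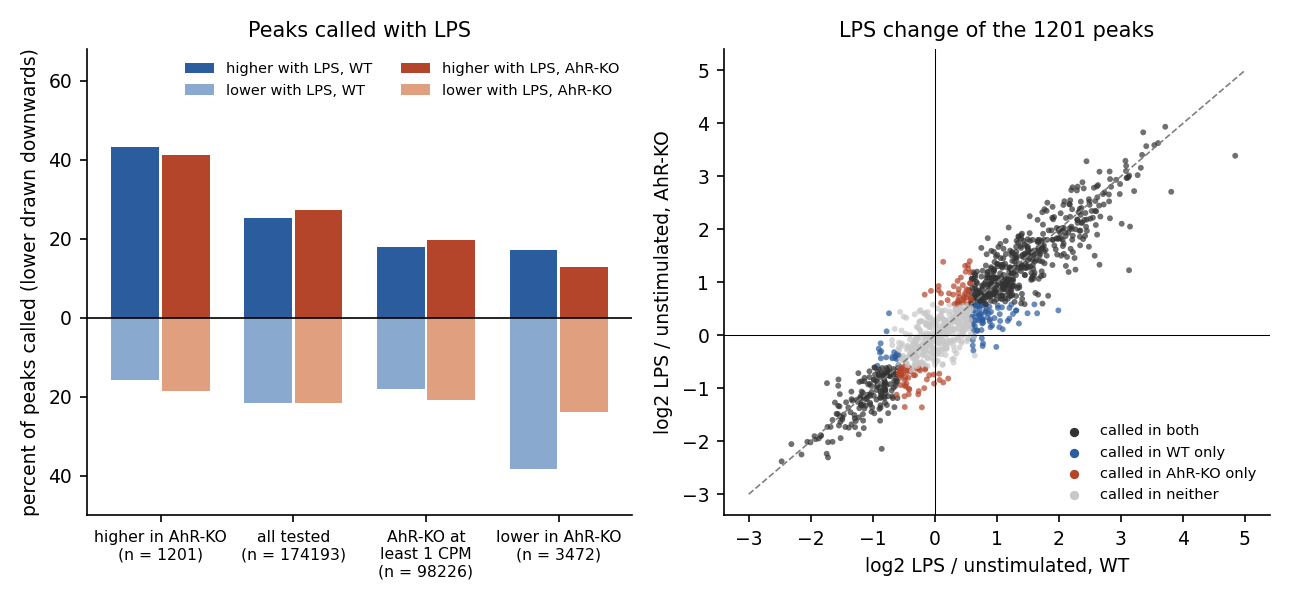
Left, percent of peaks called higher (bars up) or lower (bars down) with LPS by edgeR in each genotype, for the 1201 peaks, all tested peaks, peaks with an AhR-KO mean of at least 1 CPM, and the 3472 peaks lower in AhR-KO. Right, log2 change with LPS in WT (x axis) and AhR-KO (y axis) of the 1201 peaks, coloured by where they were called, and 43.3% of them were called higher in WT where 25.4% of all tested peaks were.

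The peaks with the smallest p-values for a rise with LPS were nearest to Kat14, Syt7, Ube4a and Pdgfb. The peak nearest to Kat14, a gene for an acetyltransferase, ran from 2.32 to 3.4 CPM in WT libraries and from 5.36 to 7.48 in AhR-KO without stimulation and from 16.1 to 24.5 and from 40.6 to 47.3 with LPS (medians 2.8, 6.27, 20.8 and 43.8; chr2:144446221-144446942, 77.6 kb from the TSS). No 2 groups overlapped, and the log2 change with LPS was 2.84 in WT (SE 0.101, adjusted p = 2.84e-23) and 2.80 in AhR-KO (SE 0.0866, adjusted p = 2.79e-25, edgeR). The peak nearest to Pdgfb, which encodes a growth factor subunit, ran from 0.515 to 0.599 CPM in WT libraries and from 0.947 to 1.33 in AhR-KO without stimulation, and from 3.68 to 4.74 and from 7.69 to 9.77 with LPS (medians 0.569, 1.2, 4.46 and 9.08; chr15:80044912-80045752). Its log2 change was 2.92 in WT (SE 0.134, adjusted p = 3.98e-20) and 2.94 in AhR-KO (SE 0.108, adjusted p = 3.68e-23, edgeR).

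At 2 of the peaks that rose most clearly, the change was larger in WT, since the genotype ratio fell from unstimulated to LPS. The peak nearest to Syt7, which encodes a calcium sensor for membrane fusion, ran from 0.13 to 0.258 CPM in WT libraries and from 0.676 to 1.33 in AhR-KO without stimulation, and from 4.6 to 5.9 and from 10.6 to 14 with LPS (medians 0.193, 1.21, 5.53 and 11.6; chr19:10379655-10380398). The log2 change was 4.84 in WT (SE 0.189, adjusted p = 4.26e-22) and 3.39 in AhR-KO (SE 0.123, adjusted p = 2.58e-23, edgeR), and the ratio of genotypes went from 5.92 to 2.19. The peak over an exon of Ube4a, a ubiquitin ligase gene, ran from 0.884 to 1.76 CPM in WT libraries and from 4.59 to 7.92 in AhR-KO without stimulation, and from 12.9 to 21.1 and from 35.5 to 41.9 with LPS (medians 1.3, 5.87, 18 and 37.6; chr9:44952735-44953681). The log2 change was 3.81 in WT (SE 0.145, adjusted p = 3.75e-21) and 2.71 in AhR-KO (SE 0.109, adjusted p = 7.62e-21, edgeR). The difference between the genotypes' LPS changes uses the same values as the choice and was not tested.

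The clearest falls with LPS were nearest to Sulf2, Cxcl12, Patj and Slc16a7. At Sulf2, which encodes a sulfatase acting on heparan sulfate, a peak 1.74 kb from the TSS ran from 2.77 to 6.91 CPM in WT libraries and from 8.45 to 10.3 in AhR-KO without stimulation and from 0.653 to 1.15 and from 1.37 to 2.43 with LPS (medians 4.59, 9.1, 0.783 and 1.71; chr2:166157135-166157680). LPS lowered it in both genotypes, with log2 changes of -2.47 in WT (SE 0.169, adjusted p = 3.18e-15) and -2.38 in AhR-KO (SE 0.145, adjusted p = 6.66e-17, edgeR). The peak nearest to Cxcl12, a chemokine gene 270 kb away, ran from 5.54 to 8.29 CPM in WT libraries and from 15.6 to 19 in AhR-KO without stimulation and from 1.87 to 3.18 and from 5.2 to 6.53 with LPS (medians 6.46, 16.3, 2.3 and 5.73; chr6:117437510-117438761). Its log2 change was -1.53 in both genotypes (SE 0.109, adjusted p = 9.99e-15 in WT and SE 0.0943, adjusted p = 9.72e-17 in AhR-KO, edgeR). The Patj peak changed by -2.31 and -2.05 and the Slc16a7 peak by -1.83 and -1.89 in WT and AhR-KO, with the largest of these 4 adjusted p at 1.12e-13 (edgeR).

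Chosen peaks were rarely at promoters. Promoter here means that the peak reached within 1 kb of a protein-coding TSS, which 29 of the 1201 peaks did, a share of 2.41% (95% Wilson interval 1.69 to 3.45), against 8.68% of all 176815 peaks, 13.8% of the 98226 peaks with the same AhR-KO floor and 3.83% of the peaks lower in AhR-KO. The rest were 615 intergenic peaks (51.2%, against 41.2% of all peaks), 487 intronic (40.5%, against 42.6%) and 70 over an exon (5.83%, against 7.53%). The median distance from a peak's centre to the nearest TSS was 49140 bases for the chosen peaks and 26327 for all peaks, and 382 (31.8%) lay over 100 kb away, where 18.1% of all peaks did. The median length was 610 bases against 550 for all peaks. Over 50% of the central 300 bases lay in repeats at 133 chosen peaks (11.1%). This share was 10.4% of all peaks, 7.96% of those with the same AhR-KO floor and 6.13% of the peaks lower in AhR-KO. Per length, the median was 1.83 CPM per kb in WT and 4.91 in AhR-KO without stimulation and 2.65 and 6.54 with LPS, where the median of all peaks was 3.27, 2.98, 3.5 and 3.4 CPM per kb in the same order. For the peaks with the same AhR-KO floor it was 5.66, 5.67, 5.81 and 5.74.

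Of the 29 promoter peaks, 14 held the TSS itself and 6 were at olfactory receptor genes, a count not compared with promoter peaks in general. In each genotype, 14 of the 29 were called higher with LPS and 5 lower. Higher calls made up 43.3% (WT) and 41.2% (AhR-KO) of the 1201 peaks, beside 25.4% and 27.3% of all tested peaks. For lower calls these shares were 15.7% and 18.4%, beside 21.6% and 21.5%. The promoter peak highest in AhR-KO was at Klrb1a, which encodes a lectin-like receptor of natural killer cells, in a cluster of related genes (chr6:128622732-128624794). It ran from 11.8 to 20.4 CPM in WT libraries and from 35.2 to 45.7 in AhR-KO without stimulation, and from 10.9 to 18.7 and from 24.5 to 31.2 with LPS (medians 16.2, 41.5, 13.6 and 29). The genotypes did not overlap, and no LPS change reached the fold of a call (log2 -0.23, SE 0.114, adjusted p = 0.0774 in WT and -0.51, SE 0.104, adjusted p = 8.52e-05 in AhR-KO, edgeR). At Pgap2, a gene for remodelling of GPI anchors, the peak ran from 5.04 to 6.91 CPM in WT libraries and from 15 to 20.9 in AhR-KO without stimulation, and from 11.8 to 17.7 and from 26.2 to 35.8 with LPS (medians 5.64, 16.7, 13.7 and 32.8; chr7:102229621-102231866). It rose with LPS by 1.33 on the log2 scale in WT (SE 0.105, adjusted p = 2.50e-13) and by 0.89 in AhR-KO (SE 0.0893, adjusted p = 8.06e-11, edgeR).

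The other promoter peaks with a high AhR-KO level had ratios without stimulation and with LPS of 3.82 and 2.52 at Gm17662, 2.52 and 2.08 at Als2cr12, 3.65 and 3.52 at Olfr961, 3.45 and 2.32 at Omp, the olfactory marker protein gene, 2.97 and 2.06 at the kallikrein gene Klk9, and 2.81 and 2.68 at Phldb1. The Klk9 and Phldb1 peaks rose steeply with LPS in both genotypes. At Klk9 the log2 change was 3.21 in WT (SE 0.262, adjusted p = 2.37e-11) and 2.72 in AhR-KO (SE 0.204, adjusted p = 2.68e-12), and at Phldb1 it was 2.50 (SE 0.164, adjusted p = 1.19e-15) and 2.46 (SE 0.128, adjusted p = 6.68e-19), all by edgeR. At Klk9 the genotypes overlapped with LPS, at 3.83 to 9.16 CPM in WT and 8.99 to 18.6 in AhR-KO. The Olfr961 peak fell by 0.62 on the log2 scale in AhR-KO (SE 0.135, adjusted p = 0.000158, edgeR), a change below the fold of a call without replicate 3, 4 or 5 of all groups (-0.56, -0.58 and -0.56). In WT the Olfr961 change was -0.57 (SE 0.172, adjusted p = 0.00467, edgeR), which was not called but passed without replicate 4 (-0.79).

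The sequences of the chosen peaks held AP-1 and C/EBP letters more often than peaks did on average. Within the central 300 bases, TGANTCA stood in 268 peaks, 22.3% (95% Wilson interval 20.1 to 24.8), against 17.9% of all peaks, 15.9% of those with the same AhR-KO floor and 13.3% of the peaks lower in AhR-KO. The C/EBP letters TTGCNNAA stood in 255 peaks (21.2%), against 15.6%, 15.8% and 11.3%, and the TEAD letters GGAATG in 18%, against 15.1%, 14.8% and 13.8%. GCGTG, the core AhR letters, stood in 159 peaks, 13.2% (95% Wilson interval 11.4 to 15.3), against 16.2% of all peaks, 19.3% of those with the same floor and 15.5% of those lower in AhR-KO. RUNX letters (TGNGGTT) stood in 18.1% against 21.3%, and in 34.9% of the peaks lower in AhR-KO. PU.1 letters (GAGGAAGT) stood in 5.66% against 7.33%, IRF letters (GAAANNGAAA) in 6.33% against 4.55%, and the NF-kB motif in 4.25% against 7.3%. No chosen peak held the CTCF motif, which 1.46% of all peaks did. The median GC content of these windows was 44.3% for the chosen peaks, 46.3% for all peaks and 47% for those lower in AhR-KO, and its part in the motif shares was not tested.

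AP-1 letters went with the LPS call, and they did so outside the chosen peaks too. Among the chosen peaks they stood in 31.7% of the 520 called higher with LPS in WT, 18.3% of the 493 not called and 6.91% of the 188 called lower, where the shares over all tested peaks of the same chromosomes were 35.5%, 14% and 7.56%. C/EBP letters were at 20%, 19.9% and 28.2% in the same 3 classes, against 16%, 14.9% and 17.5%. The NF-kB motif stood in 4.81% of the chosen peaks called higher with LPS, against 12.4% of all tested peaks called higher. Over whole peaks, whose median length was 610 bases for the chosen peaks and 839 for those with the same floor, AP-1 letters stood in 39.1% of the chosen peaks, 36.9% of those with the same floor and 31.3% of all peaks, and C/EBP letters in 38.6%, 38.2% and 29.4%. These shares are descriptions of letters in a window and do not show that a factor bound there.

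**Figure D5:**
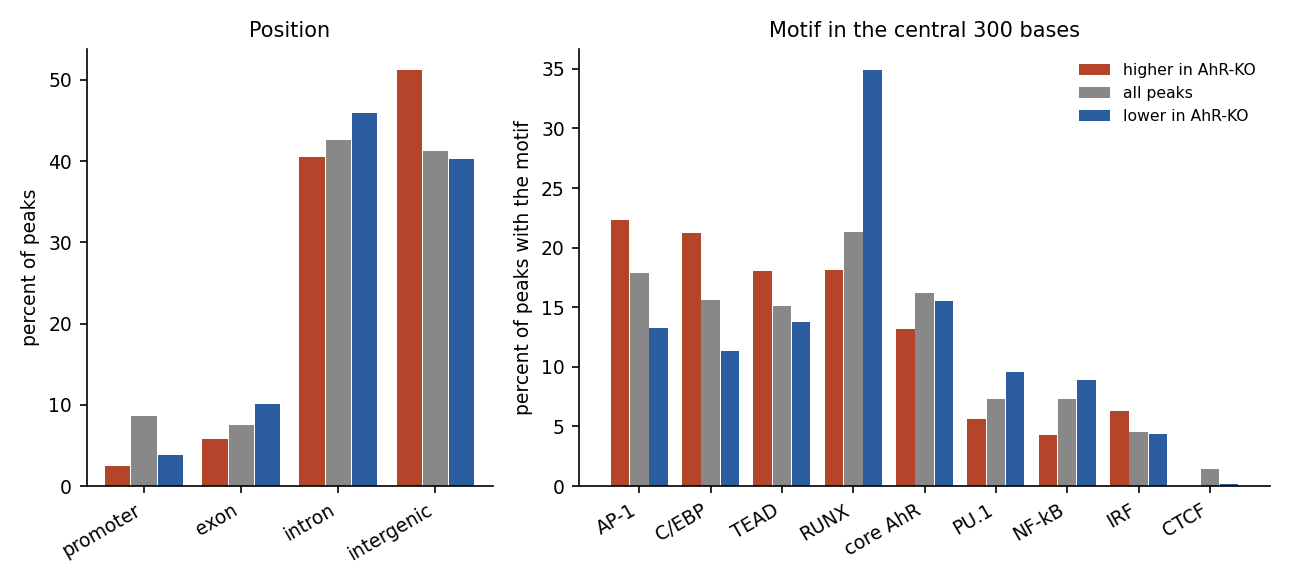
Left, percent of the 1201 peaks, of all 176815 peaks and of the 3472 peaks lower in AhR-KO by position. Right, percent whose central 300 bases hold each motif, where the 1201 peaks stand at 22.3% for AP-1 and 21.2% for C/EBP, against 17.9% and 15.6% of all peaks.

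The chosen peaks were assigned to 958 genes, 797 of them with 1 peak and 53 with 3 or more. Another chosen peak lay within 50 kb of 304 of them (25.3%). Cut into 1 Mb windows, the genome held the most chosen peaks in chr4:104000001-105000000, 10 among 27 peaks with the AhR-KO floor, next to C8a and C8b, genes for chains of complement component 8, Fyb2 and Gm17662. The next windows held 7 of 27 such peaks near Gnaz (chr10:74000001-75000000), 7 of 34 near Efnb2 and Arglu1 (chr8:8000001-9000000). Another 6 windows held 6 each, which were 6 of 65 near Marco and Steap3 (chr1:120000001-121000000), and 6 of 31 near Utp18 and Mbtd1 (chr11:93000001-94000000), among others. The window near Gm826 held 6 of 9 such peaks (chr2:159000001-160000000). Of the 9 windows with 6 or more chosen peaks, the one around Pakap (chr4:57000001-58000000) held 6 peaks of the opposite selection, those near Efnb2 and near Palmd (chr3:117000001-118000000) held 2 each, and the other 6 held none. By chromosome, the share of chosen peaks ran from 4.47 per 1000 peaks on chromosome 11 to 9.17 per 1000 on chromosome 8.

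The genes with the most chosen peaks were Gnaz with 7 of 53 assigned peaks, Efnb2 with 6 of 53, Gm826 with 6 of 71, Pakap with 6 of 15, and Cbln1 with 5 of 15, tied with Marco and Utp18. All 6 Pakap peaks lay in introns of this gene and of Palm2, which overlaps it, within chr4:57606128-57652962, and their ratios ran from 2.33 to 3.26 without stimulation and from 2.13 to 3.17 with LPS. The LPS calls of peaks assigned to the same gene were mixed at some genes and alike at others. Of the Pakap peaks 1 rose with LPS, from 1.05 to 1.68 CPM to 5.14 to 8.01 CPM in WT (log2 2.35, SE 0.13, adjusted p = 9.24e-18) and from 2.88 to 4.25 to 14.6 to 19 CPM in AhR-KO (2.27, SE 0.106, adjusted p = 3.52e-20, edgeR), and the other 5 were not called in either genotype. Near Efnb2, the gene for the membrane ligand ephrin-B2, 3 of 6 peaks were called higher with LPS in WT and 4 in AhR-KO, and 1 was called lower in AhR-KO. At Fam78b, picked after its values were seen, all 4 chosen peaks were called lower in both genotypes. The 7 peaks assigned to Gnaz, a G protein alpha subunit gene, lay 243 to 355 kb from its TSS, and 1 of them was in an intron of Pcdh15.

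Peaks beside the chosen ones were compared as well. For each chosen peak the nearest peak that was not chosen, within 50 kb, was taken, which gave 1061 tested peaks. Of these, 30.3% were DARs higher in AhR-KO without stimulation and 40.9% with LPS, against 9.24% and 12.7% of all tested peaks that were not chosen. Lower DARs made up 3.77% and 3.68% of the 1061 peaks, against 12.7% and 13.1% of all tested peaks that were not chosen. The median log2 ratio of the 1061 peaks was 0.36 without stimulation and 0.45 with LPS. Peaks over the TSSs of the genes assigned to chosen peaks outside promoters gave other values. Of 810 such peaks, 26 (3.21%) were higher in AhR-KO without stimulation and 38 (4.69%) lower, and 29 and 39 with LPS, against 2.04% higher and 4.23% lower of all 12928 TSS peaks without stimulation and 1.46% and 5.46% with LPS. Their median log2 ratio was -0.05 without stimulation and -0.04 with LPS. Of the 958 genes, 243 (25.4%) were also nearest to a peak of the opposite selection, which is 10.2% of the genes nearest to one of those.

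The scavenger receptor genes had 8 of the chosen peaks among 259 peaks (3.09%), where 0.679% of all peaks were chosen. The alveolar macrophage identity genes had 5 among 222 (2.25%), all of them at Marco, which belongs to both lists. Marco encodes a scavenger receptor of alveolar macrophages that binds bacteria and particles, and its 5 peaks lay in chr1:120509150-120536334, 5.24 kb and further from the TSS. At the peak 22.7 kb away (chr1:120527266-120528270) the libraries ran from 0.902 to 2.56 CPM in WT libraries and from 3.13 to 6.49 in AhR-KO without stimulation, and from 2.76 to 5.78 and from 7.96 to 11.8 with LPS (medians 1.9, 5.17, 4.36 and 10). The genotypes did not overlap in either treatment, and LPS raised this peak by 1.18 on the log2 scale in WT (SE 0.196, adjusted p = 4.42e-06) and by 1.06 in AhR-KO (SE 0.161, adjusted p = 9.86e-07, edgeR). Farther out, the peak at chr1:120535906-120536334 rose by 2.60 in WT (SE 0.213, adjusted p = 2.00e-12) and 2.34 in AhR-KO (SE 0.171, adjusted p = 7.18e-14, edgeR), and the 3 peaks nearer to the TSS were not called with LPS.

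Msr1, which encodes another scavenger receptor that takes up modified lipoproteins, had 2 chosen peaks, 100 and 133 kb from its TSS. The nearer one ran from 0.346 to 0.999 CPM in WT libraries and from 1.17 to 2.39 in AhR-KO without stimulation and from 0.534 to 1.24 and from 3.16 to 6.22 with LPS (medians 0.641, 1.57, 0.986 and 4.01; chr8:39742430-39742851). LPS raised it in AhR-KO (log2 1.40, SE 0.182, adjusted p = 2.16e-08), and the WT change was 0.56 (SE 0.254, adjusted p = 0.0513, edgeR), a difference between genotypes that was not tested. The intronic peak of Stab2, a receptor that clears hyaluronan and dying cells, had ratios of 2.75 and 2.57 (chr10:86947507-86949652). None of the 173 peaks of the 12 macrophage identity genes was chosen, where 0.679% of all peaks were.

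Of the eicosanoid genes, 2 had chosen peaks, 4 among 224 peaks (1.79%), where 0.679% of all peaks were chosen. In the opposite selection, which held 1.96% of all peaks, were 5 peaks of the list. Hpgd encodes the dehydrogenase that inactivates prostaglandins and had 3 of the chosen peaks. The peak 2.25 kb from its TSS ran from 2.32 to 2.99 CPM in WT libraries and from 5.68 to 6.77 in AhR-KO without stimulation, and from 1.12 to 2.1 and from 3.16 to 4.11 with LPS (medians 2.5, 5.95, 1.48 and 3.42; chr8:56291953-56292720). It fell with LPS by 0.79 on the log2 scale in WT (SE 0.134, adjusted p = 3.17e-06) and by 0.77 in AhR-KO (SE 0.112, adjusted p = 2.01e-07, edgeR). The Hpgd peak 144 kb away rose with LPS instead, by 1.32 in WT (SE 0.258, adjusted p = 3.63e-05) and 1.44 in AhR-KO (SE 0.205, adjusted p = 1.45e-07, edgeR). At Tbxas1, the thromboxane synthase gene, an intronic peak 5.59 kb from the TSS ran from 0.53 to 1.25 CPM in WT libraries and from 1.64 to 2.3 in AhR-KO without stimulation and from 2.32 to 3.85 and from 6.37 to 8.6 with LPS (medians 0.893, 1.87, 3.1 and 8.34; chr6:38912932-38913850), a log2 rise of 1.74 in WT (SE 0.162, adjusted p = 1.06e-11) and 2.09 in AhR-KO (SE 0.131, adjusted p = 1.61e-16, edgeR).

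Both chosen peaks of the matrix metalloproteinase genes lay inside Mmp12, which encodes macrophage elastase, and were long, at 3565 and 4998 bases. The longer one (chr9:7359126-7364123) ran from 6.9 to 12.1 CPM in WT libraries and from 16.5 to 37.1 in AhR-KO without stimulation and from 13.9 to 25.7 and from 37.9 to 63.9 with LPS (medians 10.1, 23.5, 23.3 and 47.1). It rose with LPS by 1.12 on the log2 scale in WT (SE 0.189, adjusted p = 2.00e-05) and by 0.94 in AhR-KO (SE 0.169, adjusted p = 3.74e-05, edgeR). Of the 13 metalloproteinase genes' 106 peaks, 2 (1.89%) were chosen and 3 fell in the opposite selection, where 0.679% and 1.96% of all peaks did. Of the 104 tested peaks of this list, 5 were DARs higher and 18 lower in AhR-KO without stimulation, and 7 and 18 with LPS. Over all tested peaks, 9.95% were higher and 12.6% lower without stimulation, and 13.4% and 13.1% with LPS.

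Peaks were chosen at AP-1 and ATF genes (2 of 219, 0.913%), at genes for NF-kB subunits and inhibitors (2 of 216, 0.926%) and at MAF and BACH genes (2 of 277, 0.722%), where 0.679% of all peaks were. Atf3, which encodes a stress-induced factor that restrains LPS-induced cytokines, had 1, with 1.28 to 2.11 CPM in WT and 4.91 to 7.13 in AhR-KO without stimulation and 0.454 to 1.15 and 2.22 to 3.35 with LPS (medians 1.69, 5.81, 0.769 and 2.75; chr1:191265563-191265774, 47.6 kb from the TSS). LPS lowered it, with log2 changes of -1.16 in WT (SE 0.185, adjusted p = 1.19e-06) and -1.09 in AhR-KO (SE 0.136, adjusted p = 8.15e-09, edgeR). Batf, Maf and Bach2 had 1 each, with ratios without stimulation and with LPS of 2.27 and 2.05, 2.19 and 2.56, and 2.28 and 2.06, and Tnfaip3, which encodes the NF-kB inhibitor A20, had 2, with 2.13 and 2.26, and 2.25 and 2.26. The intronic Bach2 peak rose with LPS by 2.21 on the log2 scale in WT (SE 0.164, adjusted p = 3.24e-14) and by 2.01 in AhR-KO (SE 0.131, adjusted p = 4.50e-16, edgeR).

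Other lists had 1 to 3 chosen peaks or none. Cyp26b1, whose enzyme degrades retinoic acid, had 2 and Rdh10, whose enzyme makes retinal, had 1, together 3 among 292 peaks of the retinoid list (1.03%). Cyp26b1's peak 59.7 kb away rose with LPS by 1.11 in WT (SE 0.153, adjusted p = 7.51e-08) and by 1.63 in AhR-KO on the log2 scale (SE 0.123, adjusted p = 2.86e-14, edgeR). Tgfb2 had 2 among the 441 peaks of its list (0.454%), and Cxcl12 had 1 among 171 peaks of chemokine genes (0.585%). Cxcr6 had 1 of the 2 chosen among 205 chemokine receptor peaks (0.976%). Cd86 and Tnfsf15 had 1 each, among 132 peaks of costimulation genes (1.52%). Dcn had 3 among the 88 peaks of the stromal list (3.41%), the largest share of any list. The 2 peaks of that list in the opposite selection were assigned to Dcn too. Kit and Gata2, genes that mast cells use, had 1 each. Of the 86 peaks of the mast cell and basophil list, 2 (2.33%) were chosen and 8 were in the opposite selection, where 0.679% and 1.96% of all peaks were. Of the 83 tested peaks of that list, 4 were DARs higher and 25 lower in AhR-KO without stimulation, and 12 and 26 with LPS. Over all tested peaks, 9.95% were higher and 12.6% lower without stimulation, and 13.4% and 13.1% with LPS. The known AhR target genes had none among 71 peaks, and there was none among the 257 peaks of inflammatory cytokine genes, 128 of interferon-stimulated genes, 71 of MHC class II genes, 99 of C-type lectin receptor genes or 237 of dendritic cell genes, where 0.679% of all peaks were chosen. No peak was chosen at the neutrophil, lymphocyte or erythroid genes, with 66, 44 and 12 peaks. Of the 65 tested neutrophil peaks, 2 were DARs higher and 20 lower in AhR-KO without stimulation, and 1 and 15 with LPS. For the 41 tested lymphocyte peaks the numbers were 1 and 12, and 2 and 15. For the 12 erythroid peaks they were 0 and 2, and 0 and 5. The shares over all tested peaks stand above.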

How the data were processed

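ATAC-seq had been run on 24 libraries in 4 groups of 6, which were taken from their labels. Per the study's methods, the authors used the nf-core atacseq pipeline on mm10 with default settings, which trims, aligns and filters reads, calls broad peaks per library and merges them. The table deposited by the authors holds raw counts of fragments per consensus peak from featureCounts 2.0.1, with a minimum overlap fraction of 0.2 and a fragment allowed to count in more than 1 peak. The broad peak lists deposited by the authors hold a fold enrichment ratio and the -log10 of a p-value and a q-value for each library, and positions alone were used here. The submitters' processing notes also name bcl2fastq 2.20.0 and MACS2.

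CPM was computed on column totals. LPS contrasts came from the edgeR 4.0.16 quasi-likelihood test (R 4.3.3, TMM, trended dispersion, filterByExpr) fitted to all 24 libraries, with Benjamini-Hochberg adjustment over the 174193 peaks that passed the filter, which included all 1201 chosen peaks. TMM factors ran from 0.976 to 1.040. The fit was tested on simulated data. Fragments amplified by PCR are not independent molecules. Intervals on shares treat the peaks as independent draws and cover counting error only, although 25.3% of the chosen peaks lay within 50 kb of another. Peaks were assigned to the nearest protein-coding TSS of the GENCODE basic annotation. Sequence came from GRCm38, and no peak ran past a chromosome's end. Motifs were searched on both strands and may overlap each other, and the NF-kB and CTCF motifs allow alternative letters.

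The peaks named were the 12 with the largest smaller ratio after adding 0.1 CPM to both means, the 8 promoter peaks highest in AhR-KO, the 3 with the smallest p-value for a rise and for a fall in each genotype, the 5 nearest the threshold on either side, those of the 5 genes with the most chosen peaks (the fifth place was a tie, settled by the alphabet), up to 4 per gene list, and the 5 windows with the most chosen peaks. The Gm826 window, which tied for the fifth place, and the full sets at Marco, Msr1 and Mmp12 were added after values were seen. A few items that these rules name are not reported here. The chosen peaks, gene lists and tests were picked with earlier results of these data known. Libraries of a group differed by more than sampling noise (chi-square per peak of at least 1.25 over 60 pairs). Alternatives were RLE factors, no filter, DESeq2 1.42.0, a replicate block, left-out libraries, medians, and other promoter and motif windows.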

Additional observations from a re-analysis of the deposited data

Results flagged for a closer look

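In 92 groups of 6 libraries, covering the leading peaks, the peaks with the smallest LPS p-values, the summed level, the number of called peaks and the library totals, the highest or lowest library was compared with the others by Dixon's criterion, which chance passes in about 1 in 20 groups, and 4 passed. At the Stard13 peak, AhR-KO unstimulated replicate 3 stood at 6.74 CPM, with the next library at 4.56. At the Cxcl12 peak, the same library stood at 19 CPM, with the next at 16.7, and WT LPS replicate 4 stood at 3.18 CPM, with the next at 2.34. WT LPS replicate 4 was also the highest of its group at the Sulf2 peak, at 1.15 CPM, with the next at 0.809. Without AhR-KO unstimulated replicate 3 the selection held 1132 peaks, and without WT LPS replicate 4 it held 1344.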

How the results depend on the processing

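The 4 counts of chosen peaks called with LPS stayed within 1.5 times of the values given under every alternative run. Higher calls were 520 in WT and 495 in AhR-KO, and they were 524 and 477 with RLE factors, 521 and 494 with no low-count filter and 523 and 477 with DESeq2. Leaving out 1 replicate number in all groups gave 488 to 539 higher and 170 to 207 lower calls in WT, and 486 to 503 and 213 to 230 in AhR-KO. With the replicate block, higher calls were 529 in WT and 493 in AhR-KO and lower calls 187 and 224. The numbers were not taken to pair the libraries: same-numbered libraries of a genotype correlated at 0.004 to 0.290, and 7 of 12 correlated best with their own number. An alternative chosen after seeing the data left out WT unstimulated replicate 5, whose total was lowest, and gave 529 and 494 higher calls.

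The selection itself held 1039 to 1356 peaks when libraries were left out, and 1259 with group medians, of which 1046 were among the 1201. The promoter share moved to 4.5% within 2 kb and 1.17% for the TSS base. In the central 500 bases and in whole peaks, the AP-1 share moved to 30.4% and 39.1% (22.9% and 36.9% of peaks with the same AhR-KO floor) and the core AhR share to 18.2% and 23.6% (28.3% and 41.1%), since longer windows hold more letters. Among named peaks, the LPS change turned sign at 3 that were not called, and the cause was not tested. In AhR-KO, the Omp value of 0.02 became -0.02 with RLE factors and with DESeq2, and ran from -0.05 to 0.11 when 1 replicate number was left out, with -0.00 without replicate 4. In WT, the Als2cr12 value of 0.01 ran from -0.06 to 0.06, with -0.05 without replicate 2, and the Pappa value of 0.13 ran from -0.05 to 0.41, with -0.01 without replicate 3. LPS calls were gained in WT at Omp under 6 alternatives (0.59 to 0.66), at Xylt1 without replicate 5 (0.61) and at Olfr961 without replicate 4 (-0.79), and in AhR-KO at Klrb1a without replicate 1 (-0.59). WT levels below 1 CPM limit the precision of the ratios there.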
